A study of Mus musculus with 8 samples.

Results

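The machinery that carries a cell from G1 into S phase was followed through 10 genes: the D-type cyclins Ccnd1, Ccnd2 and Ccnd3, the E-type cyclins Ccne1 and Ccne2, their kinases Cdk2, Cdk4 and Cdk6, the inhibitor Cdkn1b (p27) and the pocket protein Rb1. They were chosen by name and not by a rule on their values, but with earlier results of these data known. Each symbol matched 1 of the 55335 genes in the count table. All 10 passed the filter on low counts, which 16504 genes passed. Gene-level RNA-seq counts were available for mouse embryonic stem cells (ESCs) of the E14 line in 4 groups of 2 libraries each, which the study calls biological duplicates. The control group received a non-targeting shRNA (negative control), and the other groups received an shRNA against Sox2 (a core pluripotency transcription factor), Hnrnpk (an RNA-binding protein) or Cdk9 (the kinase that releases paused RNA polymerase II). Every group, control included, carried a lentiviral shRNA vector and passed through puromycin selection. According to the study's culture methods, the cells grew on gelatin with LIF, the GSK3 inhibitor CHIR99021 and the MEK inhibitor PD0325901. Which of the shRNAs against each gene was used in a given library is not given in the sources used here. The sources used here say no more of how the duplicates were made, so the p-values measure only the spread between these libraries, which may be technical.

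In textbook terms, D-type cyclins are made in response to mitogens and bind Cdk4 or Cdk6, and E-type cyclins bind Cdk2 later in G1. Both kinds of complex phosphorylate Rb1, which then lets go of the E2F factors, and E2F switches on the genes for DNA replication. Cdkn1b binds and restrains the cyclin-kinase complexes. Mouse ESCs are known for a short G1 phase.

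Library totals ran from 16709201 to 17719366 counts, and the replicates of each group differed by more than counting noise. Sox2 mRNA was at 412 and 530 CPM (counts scaled to library size with edgeR's TMM factors) in control and at 320 and 284 in Sox2-KD, and Cdk9 mRNA was at 109 and 129 CPM in control and at 73.1 and 53.2 in Cdk9-KD. Hnrnpk mRNA was at 1094 and 1131 CPM in control and at 697 and 1144 in the hnRNPK-KD libraries, so only replicate 1 was below control, and these libraries are called the group labelled hnRNPK-KD. The summed level of 8 ESC markers lay between 6357 and 8338 CPM in all libraries, with none at 0. In Sox2-KD 3 of these 8 were lower than control without overlap and 0 higher, beside 25.2% and 28.2% of all genes tested. None of the 8 was called there, and their median log2 fold change was −0.22, with Nanog lowest at −0.43. The summed level of 8 trophectoderm markers was 89.0 and 101 CPM in control and 185 and 317 in Sox2-KD. Of the 6 that were tested, 4 were called higher there (Krt8, Krt18, Gata3 and Eomes). Cdx2 (log2 fold change −2.15) and Tfap2c were below both control libraries in both Sox2-KD libraries, and neither was called. Tfap2c was at 43.4 and 43.0 CPM in control, 28.7 and 32.5 in Sox2-KD, and lower than control in every other library too. Eomes was above both control libraries in every knockdown. It was at 3.83 and 2.58 CPM in control, 8.96 and 9.25 in Sox2-KD and 19.5 and 14.3 in Cdk9-KD. The group labelled hnRNPK-KD stood at 8.09 and 7.92 CPM. The summed level of 8 primitive endoderm markers was 376 and 400 CPM in control and 485 and 670 in Sox2-KD, where 3 of 7 tested rose and 1 fell. That sum was above both control libraries in the other knockdowns too. It was 500 and 448 CPM in the group labelled hnRNPK-KD and 541 and 490 in Cdk9-KD. Most of it came from Sparc and Lama1. Mean Lama1 was 230 CPM in control, 309 in the group labelled hnRNPK-KD, 310 in Cdk9-KD and 114 in Sox2-KD. Mean Sparc was 154, 161, 201 and 411 CPM in the same order. Lama1 was the marker that fell in Sox2-KD. The median log2 fold change of the 7 tested was −0.12 in the group labelled hnRNPK-KD and 0.20 in Cdk9-KD. In these groups 0 were called, beside 0% and 0.139% of all genes. Of all genes tested, 4.32% were called in Sox2-KD in either direction. Fibroblast markers summed to 2.25 to 6.19 CPM in all libraries, with up to 4 of 7 at 0. Of the 4 tested, 1 (Lum) was called higher in Sox2-KD, at 23 and 13 counts there and 0 and 1 in control. The others had negative log2 fold changes there, and 0 were called lower. The median of the 4 was −0.39. Col1a2 was lowest at −3.44, with a mean of 1.59 CPM in control and 0.138 in Sox2-KD.

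Cdk4 was the most abundant of the 10 mRNAs per length and Ccnd2 the least. To compare genes, CPM were divided by the length of all annotated exons of a gene in kilobases. On that scale the control level was 182 ± 5.88 CPM per kb for Cdk4 (SD, n = 2, as for the levels that follow), 66.8 ± 7.40 for Ccne1 and 36.0 ± 17.2 for Ccnd1. Ccnd3 followed at 22.7 ± 0.319, Cdk2 at 22.1 ± 0.164, Cdkn1b at 12.7 ± 2.74 and Ccne2 at 7.44 ± 0.217. The lowest levels were those of Cdk6 at 4.40 ± 1.11, Rb1 at 2.14 ± 0.0861 and Ccnd2 at 0.0362 ± 0.000440 CPM per kb. No neighbours in this order overlapped between the control libraries, although Ccnd3 and Cdk2 lay close together. By group mean, Cdk4 and Ccne1 held the top of the order in the other groups too, and Cdkn1b, Ccne2, Cdk6, Rb1 and Ccnd2 the bottom, with Ccne2 and Cdk6 overlapping in the group labelled hnRNPK-KD and in Cdk9-KD. Between them, Ccnd1, Ccnd3 and Cdk2 each overlapped its neighbour in Sox2-KD, in the group labelled hnRNPK-KD and in Cdk9-KD, where their means ran from 18.6 to 27.4 CPM per kb.

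**Figure D1:**
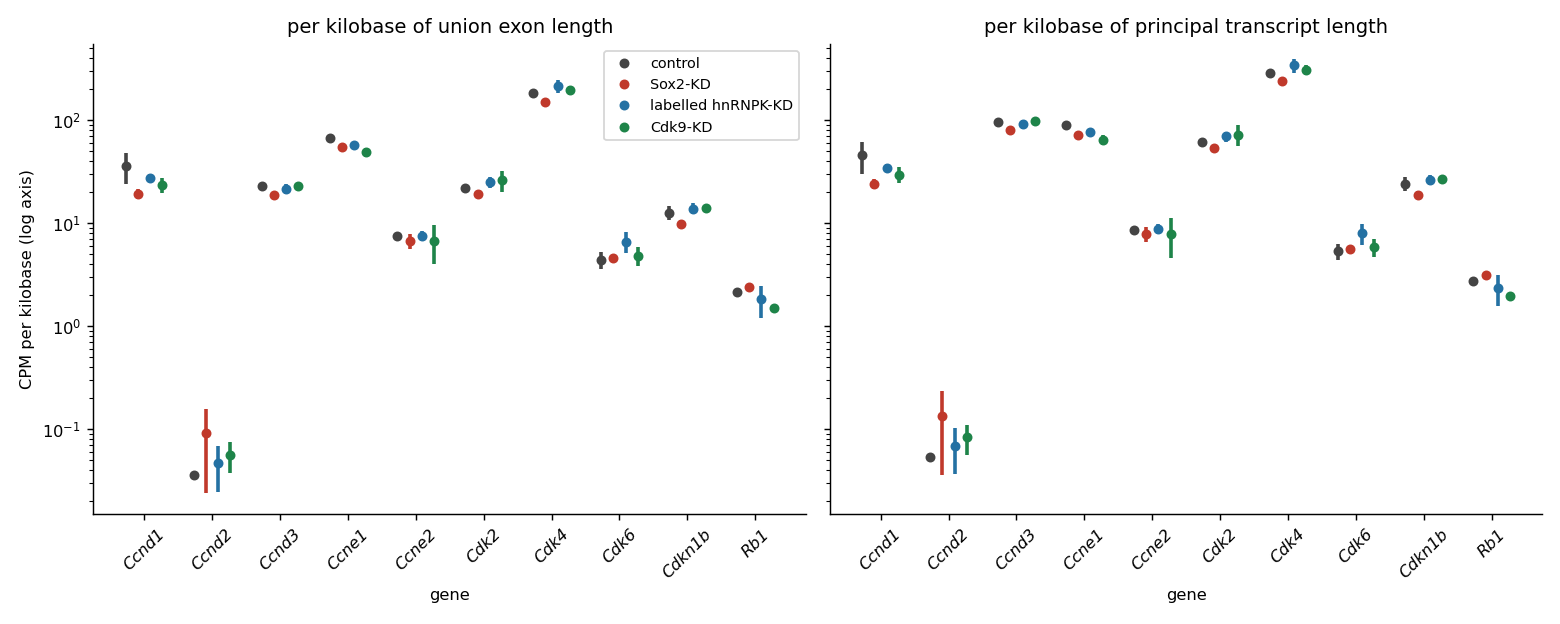
Level of each of the 10 genes in TMM-scaled CPM per kb (log axis), per kb of annotated exon (left) and of principal transcript (right, explained below). Points mark the group mean, bars run between the 2 libraries of a group, and colours mark the groups. Per kb of annotated exon, Cdk4 sat at 146 to 248 CPM in every library and Ccnd2 at 0.0243 to 0.158.

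The middle of the order depended on the gene length used, chiefly for Ccnd3. Its annotated exons span 8775 bases, while its principal transcript (the APPRIS choice, a length added after the data were seen) has 2060 bases. With principal transcripts the control levels were 288 CPM per kb for Cdk4, 96.6 for Ccnd3, 88.9 for Ccne1, 61.3 for Cdk2 and 45.4 for Ccnd1, and Ccnd3 and Ccne1 overlapped. Ccnd1 made up 51.0% and 68.2% of the summed D-type level in the control libraries with all exons, and 23.5% and 38.8% with principal transcripts. The order of Ccnd1 and Ccnd3 per length therefore cannot be given from gene-level counts. A few relations held with either length in every library: Ccnd2 was at most 0.434% of the D-type sum, Ccne1 was 84.9% to 92.6% of the E-type sum, and Cdk4 was 30.5 to 64.0 times Cdk6.

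Ccnd1 (ENSMUSG00000070348.5, chromosome 7, 144929931 to 144939925, − strand, GRCm38), the D-type cyclin most tied to mitogen signals, had the largest difference from control among the abundant members. It was at 112 and 227 CPM in control, 80.6 and 100 in Sox2-KD, 117 and 141 in the group labelled hnRNPK-KD, and 91.3 and 130 in Cdk9-KD. Both Sox2-KD libraries were below both control libraries, whose own values differed more than those of any other group, and the other groups overlapped control. In Sox2-KD the log2 fold change (log2FC) was −0.91 (SE 0.29, 95% interval −1.55 to −0.26), with an edgeR adjusted p of 0.112 (quasi-likelihood test, Benjamini-Hochberg over all genes tested). Calls need an adjusted p under 0.05 together with a log2FC past 0.6 in either direction, so Ccnd1 was not called. The call rested on the control libraries: the log2FC was −1.34 (edgeR adjusted p = 0.0317) without control replicate 1 and −0.32 (edgeR adjusted p = 0.633) without control replicate 2. DESeq2 called it, at −0.93 with an adjusted p of 0.0165. The log2FC was −0.62 in Cdk9-KD (edgeR adjusted p = 0.498) and −0.40 in the group labelled hnRNPK-KD (edgeR adjusted p = 0.806). Exons of LTO1, on the other strand, cover 23.4% of the Ccnd1 exons, and the strand setting of the counting is not stated, so reads there cannot be told apart. LTO1 itself had a log2FC of 0.0034 in Sox2-KD against control.

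Ccnd2 (ENSMUSG00000000184.12, chromosome 6, 127125162 to 127152193, − strand) was close to absent, with 6 and 6 counts in control, 27 and 4 in Sox2-KD, 11 and 4 in the group labelled hnRNPK-KD and 12 and 6 in Cdk9-KD. The highest value was that of 1 Sox2-KD library, and the other Sox2-KD library held the lowest CPM. Its log2FC in Sox2-KD was 1.32 (95% interval −0.52 to 3.16), and −0.57 without Sox2-KD replicate 1. No difference of this gene could be told from the spread between replicates, which in Sox2-KD was wider than that of any other group.

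Ccnd3 (ENSMUSG00000034165.16, chromosome 17, 47505051 to 47599691, + strand) was the steadiest D-type cyclin. It was at 201 and 197 CPM in control, 168 and 159 in Sox2-KD, 169 and 208 in the group labelled hnRNPK-KD and 189 and 211 in Cdk9-KD. The Sox2-KD libraries were the lowest of all, by a log2FC of −0.29 (SE 0.15, 95% interval −0.61 to 0.04, edgeR adjusted p = 0.331), and in the other groups the values overlapped control. A processed copy, Ccnd3-ps, matches it at 96.6% over 417 bases and held 14 counts over all libraries against 26114 for Ccnd3.

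Ccne1 (ENSMUSG00000002068.16, chromosome 7, 38097984 to 38107534, − strand), the main E-type cyclin here, was below both control libraries in all 3 knockdown groups. It was at 164 and 192 CPM in control, 153 and 137 in Sox2-KD, 148 and 157 in the group labelled hnRNPK-KD and 116 and 143 in Cdk9-KD. Cdk9-KD gave the largest difference, a log2FC of −0.46 (SE 0.16, 95% interval −0.80 to −0.11), with an edgeR adjusted p of 0.349. Sox2-KD gave −0.30 (edgeR adjusted p = 0.342) and the group labelled hnRNPK-KD −0.22 (edgeR adjusted p = 0.804). All 3 differences are taken from the same control libraries, so they are not independent of one another, and none was called.

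Ccne2 (ENSMUSG00000028212.16, chromosome 4, 11191351 to 11204779, + strand) was spread widest in Cdk9-KD, at 13.9 and 33.5 CPM. It was at 25.5 and 26.5 CPM in control, 27.6 and 19.5 in Sox2-KD and 29.2 and 23.5 in the group labelled hnRNPK-KD, so every group overlapped control. The 95% interval of its difference from control in Sox2-KD ran from −0.89 to 0.61 log2 units, which leaves room for differences of moderate size. Ints8 exons on the other strand cover 17.4% of its exons. The whole Ints8 gene, not just the shared stretch, held 10422 counts over all libraries against 3465 for Ccne2.

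**Figure D2:**
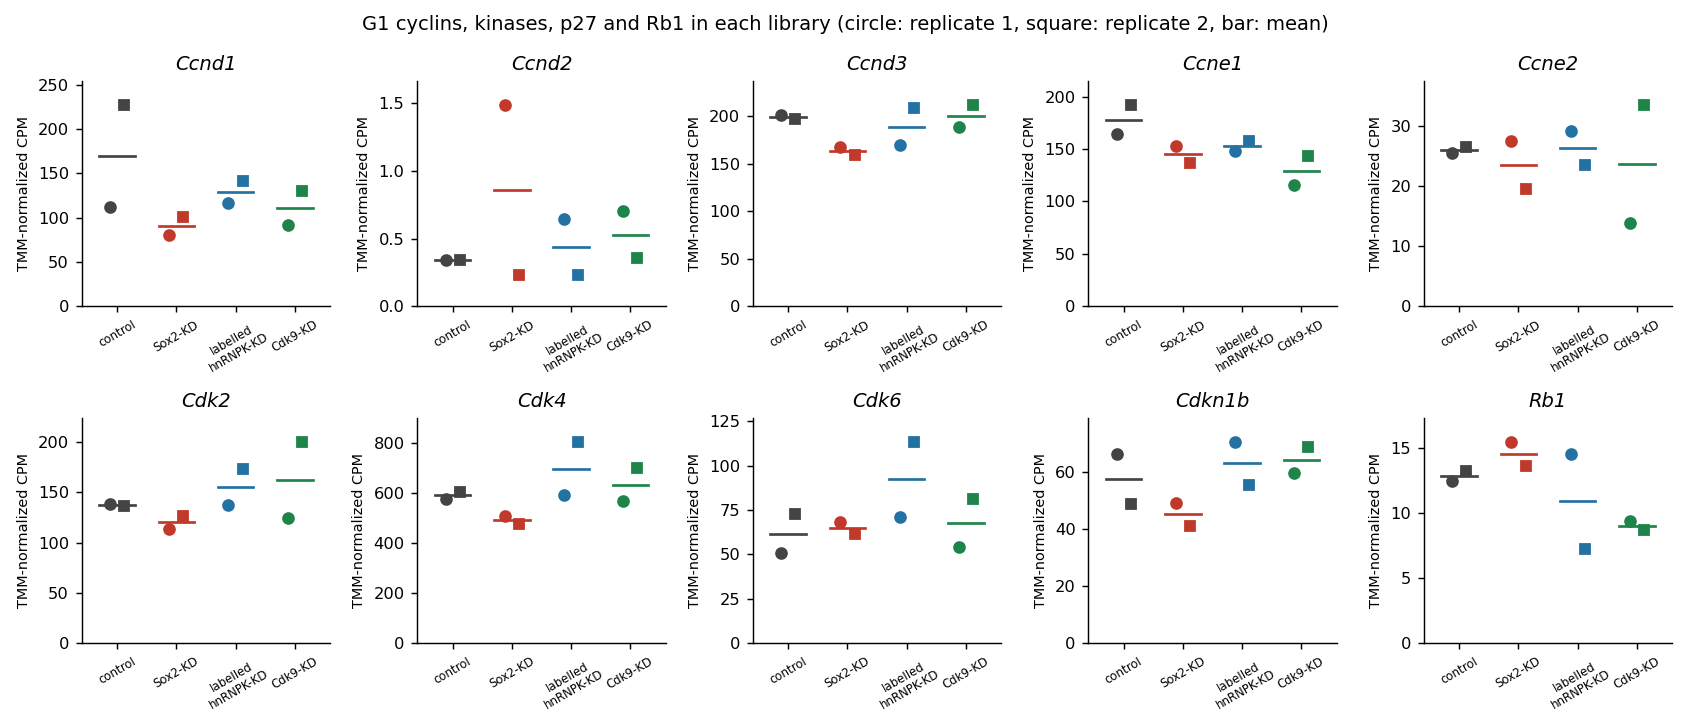
TMM-scaled CPM of each of the 10 genes in the 8 libraries, 1 panel per gene with its own axis from 0; circles are replicate 1, squares replicate 2, and bars the group mean. Ccnd1, Ccnd3, Ccne1, Cdk2 and Cdk4 lay below both control libraries in both Sox2-KD libraries.

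Among the kinases, Cdk4 (ENSMUSG00000006728.12, chromosome 10, 127063534 to 127067920, + strand), the D-type partner, was at 578 and 605 CPM in control and 508 and 474 in Sox2-KD. The group labelled hnRNPK-KD was at 591 and 804 CPM and Cdk9-KD at 567 and 699. The Sox2-KD libraries were again the lowest of all, and the high value of the group labelled hnRNPK-KD was that of replicate 2, the library whose Hnrnpk mRNA was not reduced. The log2FC was −0.27 in Sox2-KD (95% interval −0.65 to 0.11, edgeR adjusted p = 0.445), 0.24 in the group labelled hnRNPK-KD (−0.02 without replicate 2) and 0.10 in Cdk9-KD. Tspan31, on the other strand, covers 19.7% of the Cdk4 exons, with 7698 counts over all libraries against 83797 for Cdk4.

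Cdk6 (ENSMUSG00000040274.11, chromosome 5, 3341485 to 3531008, + strand), the other D-type partner, was at 50.6 and 72.6 CPM in control, 68.2 and 61.5 in Sox2-KD, 71.2 and 113 in the group labelled hnRNPK-KD and 54.1 and 81.3 in Cdk9-KD. The highest library was replicate 2 of the group labelled hnRNPK-KD, and every group overlapped control. That group's log2FC was 0.58 (SE 0.26, 95% interval 0.0063 to 1.16, edgeR adjusted p = 0.618), and it was 0.19 without replicate 2. Sox2-KD was at 0.07 (95% interval −0.50 to 0.65) and Cdk9-KD at 0.14 (95% interval −0.44 to 0.71).

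Cdk2 (ENSMUSG00000025358.16, chromosome 10, 128697939 to 128705031, − strand), the E-type partner, was at 138 and 137 CPM in control, 114 and 126 in Sox2-KD, 138 and 173 in the group labelled hnRNPK-KD and 124 and 200 in Cdk9-KD. The Sox2-KD libraries were below both control libraries, and the other groups overlapped them. The log2FC was −0.19 in Sox2-KD (95% interval −0.66 to 0.27), 0.18 in the group labelled hnRNPK-KD (−0.02 without replicate 2) and 0.24 in Cdk9-KD, with edgeR adjusted p of 0.669, 0.904 and 0.750. Cdk2 was the only member with a match when RefSeq promoters of GRCm38.p6 (250 bases before to 50 after a start site) were searched for E2F-type letters, TTTCCCGC, TTTCGCGC, TTTGCCGC or TTTGGCGC on either strand. Such promoters were found for 6 of the 10 members (Ccnd3, Ccne1, Cdk2, Cdk4, Cdk6 and Cdkn1b), and 2.26% of all 32851 promoters of this length hold a match. The Cdk2 match lies 140 bases upstream of the start site at chr10:128705173-128705202 (GRCm38.p6, − strand) and reads, with the match in capitals as the reverse complement of TTTCCCGC:
Cdk2: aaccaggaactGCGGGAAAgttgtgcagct
A match in letters says nothing of binding in these cells.

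Cdkn1b (ENSMUSG00000003031.14, chromosome 6, 134920401 to 134925513, + strand), which encodes the inhibitor p27, was at 66.5 and 48.9 CPM in control, 49.3 and 40.9 in Sox2-KD, 70.6 and 55.5 in the group labelled hnRNPK-KD and 59.5 and 69.0 in Cdk9-KD. Every group overlapped control, Sox2-KD narrowly. In Sox2-KD the log2FC was −0.35 (SE 0.20, 95% interval −0.79 to 0.08, edgeR adjusted p = 0.370). It was 0.13 in the group labelled hnRNPK-KD and 0.16 in Cdk9-KD, with edgeR adjusted p of 0.937 and 0.848.

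Rb1 (ENSMUSG00000022105.6, chromosome 14, 73183673 to 73325822, − strand), the substrate of the G1 kinases, was at 12.5 and 13.2 CPM in control, 15.5 and 13.6 in Sox2-KD, 14.6 and 7.27 in the group labelled hnRNPK-KD and 9.41 and 8.69 in Cdk9-KD. Both Cdk9-KD libraries were below both control libraries and both Sox2-KD libraries above them, while the group labelled hnRNPK-KD lay on either side. The log2FC was −0.51 in Cdk9-KD (95% interval −1.17 to 0.16, edgeR adjusted p = 0.601), 0.18 in Sox2-KD (edgeR adjusted p = 0.797) and −0.23 in the group labelled hnRNPK-KD, where it was 0.16 without replicate 2. Exons of Rcbtb2 and Lpar6, on the other strand, cover 8.11% and 6.78% of the Rb1 exons, and both had lower levels in Sox2-KD than in control (log2FC −0.62 and −0.96, neither called), opposite in sign to Rb1.

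Counted over the 10 members, none was called in any comparison with control. In Sox2-KD 0 of 10 were called by edgeR, against 4.32% of the 16504 genes tested, with 1 (Ccnd1) at an unadjusted p under 0.05, beside 19.3% of all genes, and 1 called by DESeq2. In the group labelled hnRNPK-KD 0 of 10 were called, with 1 (Cdk6) at an unadjusted p under 0.05, beside 8.03%, and 0 called by DESeq2. The background there was 0%, as edgeR called no gene at all, with 1325 genes at an unadjusted p under 0.05 and 91 called by DESeq2. In Cdk9-KD 0 of 10 were called, against 0.139% of all genes tested, with 1 (Ccne1) at an unadjusted p under 0.05, beside 10.4%, and 0 called by DESeq2. The members' libraries did not overlap control for 5 lower and 1 higher in Sox2-KD, beside 25.2% lower and 28.2% higher of all genes tested. They did not overlap for 1 lower and 0 higher in the group labelled hnRNPK-KD, beside 18.7% and 20.4%, and for 2 lower and 1 higher in Cdk9-KD, beside 18% and 21.2%. The median log2FC of the members was −0.23 in Sox2-KD, 0.07 in the group labelled hnRNPK-KD and 0.05 in Cdk9-KD, beside 0.02 for all genes tested in each. These comparisons share the control libraries, and bulk counts cannot tell fewer cells with a transcript from less of it in each cell.

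**Figure D3:**
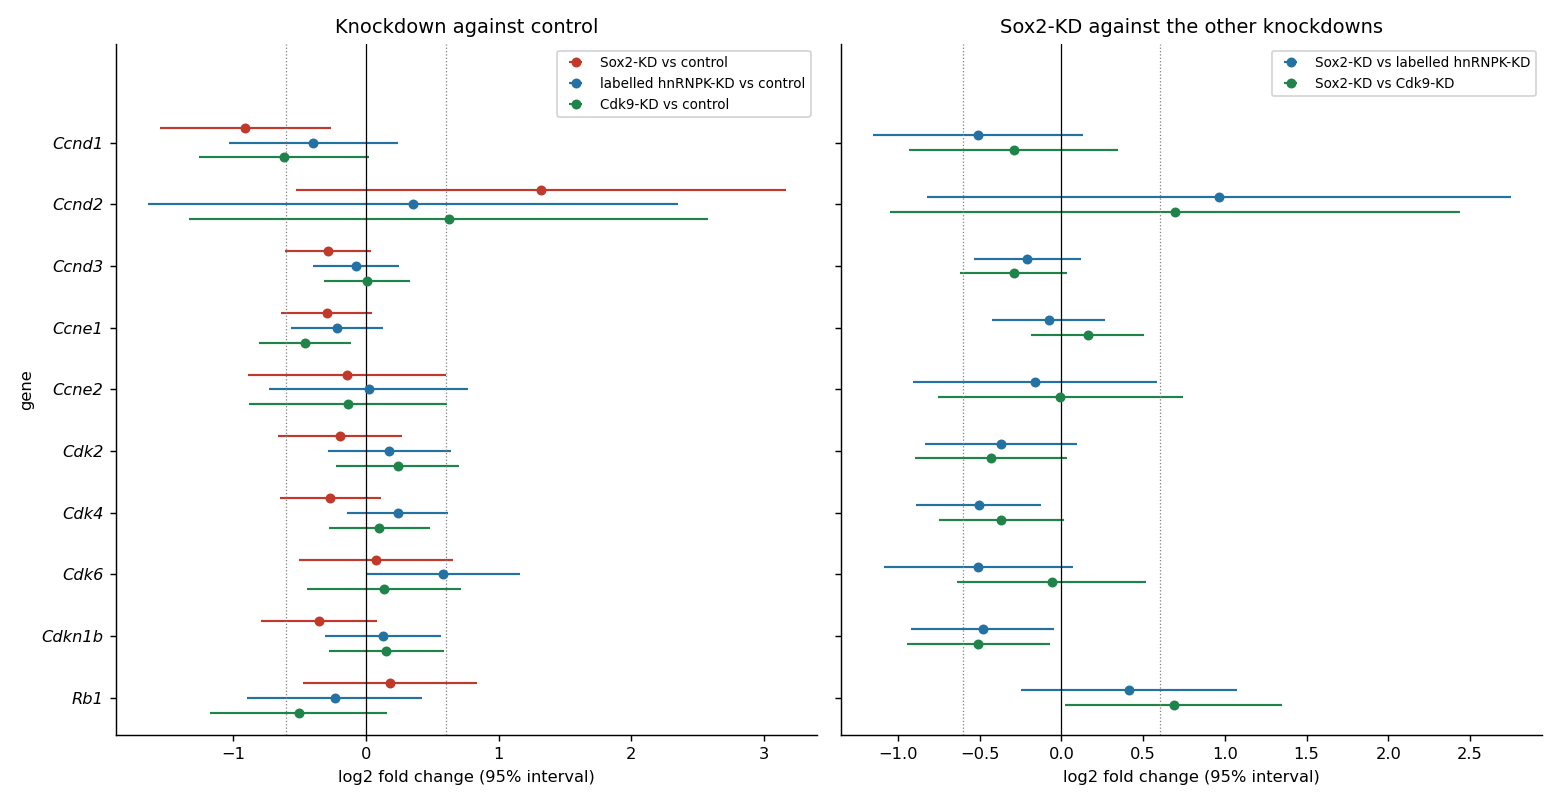
Log2 fold change of each of the 10 genes with its 95% interval, for each knockdown against control (left) and for Sox2-KD against the other knockdowns (right); dotted lines mark 0.6 in either direction. For Ccnd1 in Sox2-KD the interval ran from −1.55 to −0.26, and for Ccnd2 from −0.52 to 3.16.

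Set directly against the other knockdowns, both Sox2-KD libraries lay below for Ccnd3, Cdk4 and Cdkn1b in either comparison, without a call. Against the group labelled hnRNPK-KD, 6 of 10 members were lower in both Sox2-KD libraries (Ccnd1, Ccnd3, Cdk2, Cdk4, Cdk6 and Cdkn1b), beside 27.3% of all genes tested, 0 were higher, beside 27.6%, and 0 of 10 were called, beside 5.9%. Unadjusted p were under 0.05 for 2 of them, beside 21.3% of all genes: Cdk4 (log2FC −0.51, SE 0.17, edgeR adjusted p = 0.118) and Cdkn1b (log2FC −0.48, SE 0.20, edgeR adjusted p = 0.188), and DESeq2 called 0. Without replicate 2 of the group labelled hnRNPK-KD, Cdk4 was at −0.26 and Cdkn1b at −0.63. Against Cdk9-KD, 3 members were lower (Ccnd3, Cdk4 and Cdkn1b) and 1 higher (Rb1) in both Sox2-KD libraries, beside 25.1% and 24.7% of all genes, and 0 of 10 were called, beside 7.33%. The unadjusted p was under 0.05 for 2, beside 21.7% of all genes: Cdkn1b (log2FC −0.51, SE 0.20, edgeR adjusted p = 0.160) and Rb1 (log2FC 0.69, SE 0.30, edgeR adjusted p = 0.214), and DESeq2 called 0. Cdk2 was at −0.43 (edgeR adjusted p = 0.264), and without Cdk9-KD replicate 1 it was at −0.72 and called (edgeR adjusted p = 0.0485).

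Around the 10 members, 49 other genes of the pathway were followed, and all 49 were tested. In Sox2-KD 1 rose and 1 fell by the call, beside 4.32% of all genes called. An unadjusted p under 0.05 was reached by 23 (20 lower and 3 higher), beside 19.3% of all genes, and 27 were lower and 5 higher without overlap, beside 25.2% and 28.2%. Their median log2FC was −0.27, beside 0.02 for all genes. None was called in the group labelled hnRNPK-KD (4 at an unadjusted p under 0.05, beside 8.03% of all genes, 0 by DESeq2, median −0.02) or in Cdk9-KD (7 at an unadjusted p under 0.05, beside 10.4%, 0 by DESeq2, median −0.14).

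Among the 6 other CDK inhibitors, Cdkn1c (p57) rose in Sox2-KD from a low level. Its levels were 1.63 and 0.917 CPM in control, 3.30 and 5.88 in Sox2-KD, 1.35 and 1.05 in the group labelled hnRNPK-KD and 1.29 and 1.36 in Cdk9-KD. Sox2-KD was called above the group labelled hnRNPK-KD (log2FC 1.93) and above Cdk9-KD (log2FC 1.79). Neither call held in every fit that left out a library. Both Sox2-KD libraries stood above all 6 others, by a log2FC of 1.84 against control (SE 0.44, edgeR adjusted p = 0.0414). The call was lost without either control library or without Sox2-KD replicate 2, at edgeR adjusted p of 0.0970, 0.257 and 0.296. It was also lost without the filter on low counts (0.0518), with only the 4 libraries compared (0.0581) and with the replicate number as a block (0.0602). Cdkn1a (p21), far more abundant, was at 276 and 271 CPM in control, 412 and 377 in Sox2-KD, 262 and 178 in the group labelled hnRNPK-KD and 280 and 218 in Cdk9-KD. It was highest in Sox2-KD, with a log2FC of 0.53 against control (SE 0.19, edgeR adjusted p = 0.158), and was called against the group labelled hnRNPK-KD, at 0.84 (SE 0.19, edgeR adjusted p = 0.0317). Cdkn2b (p15) was at 5.35 and 5.04 CPM in control, 8.41 and 6.28 in Sox2-KD, 3.40 and 2.10 in the group labelled hnRNPK-KD and 2.86 and 3.31 in Cdk9-KD. Sox2-KD was highest and control next, the other knockdowns overlapped each other below them, and Sox2-KD was called above the group labelled hnRNPK-KD (log2FC 1.42, SE 0.33, edgeR adjusted p = 0.0344) and above Cdk9-KD (log2FC 1.25, SE 0.33, edgeR adjusted p = 0.0462), but not above control (log2FC 0.50, edgeR adjusted p = 0.444). Against the group labelled hnRNPK-KD, the calls of Cdkn1a, Cdkn1c and Cdkn2b were each lost in 3 of 4 fits that left out a library, at edgeR adjusted p of 0.103 to 0.210, 0.0857 to 0.281 and 0.111 to 0.219, and in each case without replicate 2 of that group. That of Cdkn2b was also lost without the filter (0.0507) and with only the 4 libraries compared (0.0648). Against Cdk9-KD, the Cdkn2b call was lost when any of the 4 libraries was left out (edgeR adjusted p of 0.106 to 0.205), without the filter (0.0747), with only the 4 libraries compared (0.0580) and with the replicate number as a block (0.0552). Of the other inhibitors, Cdkn2d had a log2FC of −0.47 in Sox2-KD and Cdkn2a of 0.65 in Cdk9-KD, neither called, and in the group labelled hnRNPK-KD values ran from −1.01 for Cdkn2c to −0.05 for Cdkn2a. In the same Sox2-KD libraries, 4 of 6 tested trophectoderm markers and 3 of 7 tested primitive endoderm markers were called higher. Of the primitive endoderm markers 1 was called lower, and 4.32% of all genes were called in either direction. The part of these cell type markers in the inhibitor differences was not tested.

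**Figure D4:**
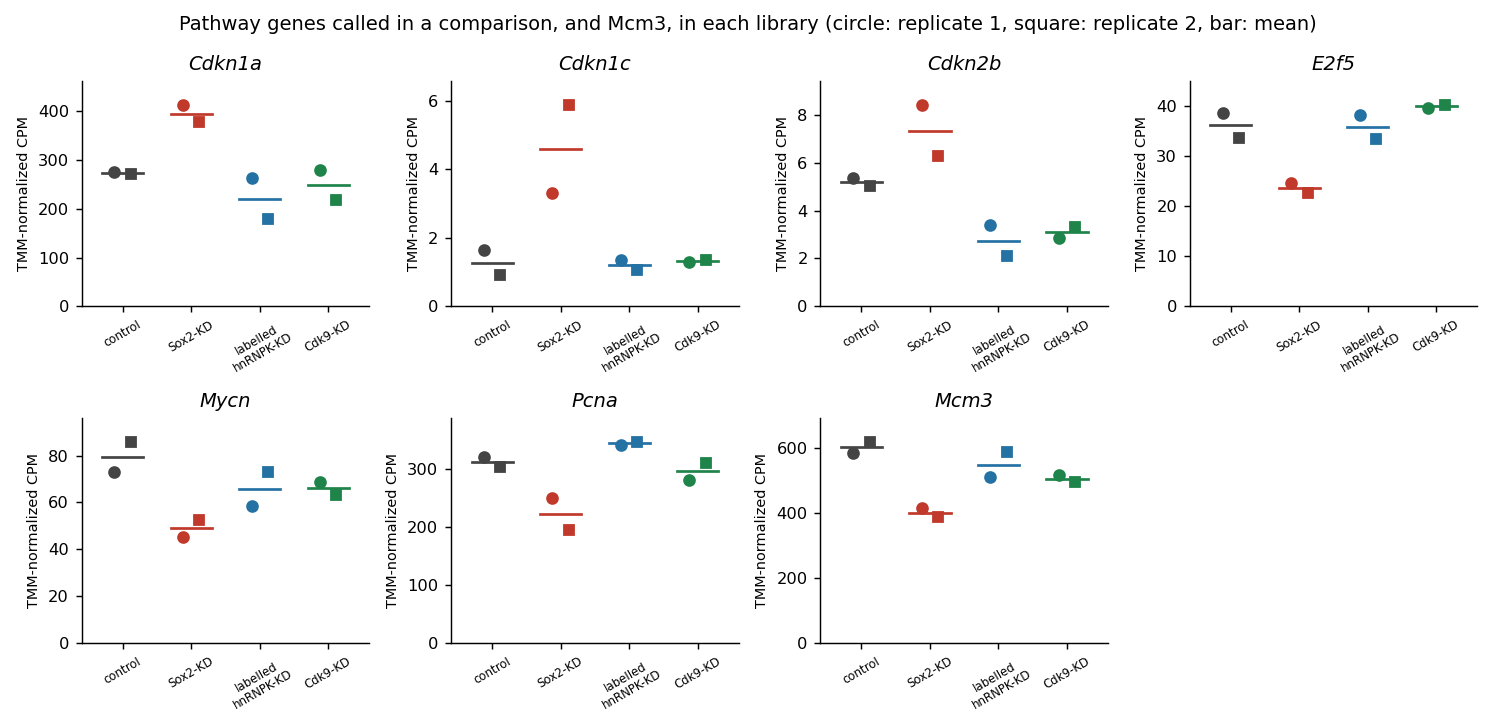
TMM-scaled CPM in each library of the pathway genes called in any comparison, and of Mcm3, each with its own axis from 0; circles are replicate 1, squares replicate 2, and bars the group mean. Cdkn1c stood at 3.30 and 5.88 CPM in Sox2-KD and at no more than 1.63 elsewhere.

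On the mitogen side, Mycn, a transcription factor of the Myc family, fell in Sox2-KD. It was at 73.2 and 85.9 CPM in control, 45.4 and 52.5 in Sox2-KD, 58.4 and 72.8 in the group labelled hnRNPK-KD and 68.8 and 63.3 in Cdk9-KD. All 6 knockdown libraries were below both control libraries, and Sox2-KD lowest, with a log2FC of −0.70 (SE 0.17, edgeR adjusted p = 0.0430). Myc, at a lower level, ranged from 3.89 to 25.0 CPM over all libraries and was not called in any comparison. The fall of Mycn was no longer called when any of the 4 libraries was left out, at edgeR adjusted p of 0.0995 to 0.254, with library totals in place of TMM (0.0602) or without the filter (0.0576).

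In Sox2-KD most of the replication genes listed as targets of E2F lay lower. Control of these genes by E2F was not tested here. Of the 13 such genes reported, 12 were below both control libraries (11 with library totals in place of TMM), beside 25.2% of all genes, 9 had an unadjusted p under 0.05, beside 19.3%, 0 were called by edgeR and 2 by DESeq2 (Mcm3 and Mcm4), and the median log2FC was −0.48. Mcm3, a subunit of the replicative helicase, was at 584 and 618 CPM in control and 414 and 388 in Sox2-KD, with an edgeR adjusted p of 0.0393 but a log2FC of −0.59, short of the threshold. Pcna, the sliding clamp, was at 320 and 304 CPM in control, 249 and 194 in Sox2-KD and 341 and 346 in the group labelled hnRNPK-KD, and was called lower in Sox2-KD only against the latter (log2FC −0.63, SE 0.15, edgeR adjusted p = 0.0367). That call was lost in 3 of 4 fits that left out a library (edgeR adjusted p of 0.113 to 0.351), with library totals (0.0572) and with only the 4 libraries compared (0.0611). Tk1, thymidine kinase, was the exception at 71.6 and 74.1 CPM in control and 73.5 and 76.5 in Sox2-KD. In Cdk9-KD 9 of the 13 were below both control libraries (median log2FC −0.21) and in the group labelled hnRNPK-KD 5 were (median −0.08), beside 18% and 18.7% of all genes, with none called in either, by edgeR or by DESeq2. The count in the group labelled hnRNPK-KD was 9 without replicate 2 of that group, 9 without control replicate 1 and 9 with library totals in place of TMM.

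Promoters were found for 12 of these 13 genes, and 6 of them (Mcm3, Mcm5, Mcm6, Mcm7, Cdc6 and Cdt1) hold the E2F-type letters, beside 1 of 6 among the members and 2.6% of the 27025 genes with a promoter. The windows below, from RefSeq (GRCm38.p6), show matches upstream of the start site in 3 of them, for comparison with that of Cdk2. In each window 1 match is in capitals. In the Mcm6 and Mcm5 windows a further match overlaps it, the reverse complement of TTTCGCGC for Mcm6 and of TTTGGCGC for Mcm5. Mcm6 is at chr1:128359797-128359826 (− strand), Mcm5 at chr8:75109345-75109374 (+ strand) and Cdc6, whose letters are again the reverse complement, at chr11:98908002-98908031 (+ strand).
Mcm6: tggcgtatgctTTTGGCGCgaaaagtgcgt
Mcm5: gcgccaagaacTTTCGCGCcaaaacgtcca
Cdc6: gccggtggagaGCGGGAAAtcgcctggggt
Mcm6 was at 451 and 503 CPM in control and 332 and 307 in Sox2-KD (log2FC −0.58, edgeR adjusted p = 0.0591), while Cdc6 was at 112 and 108 CPM and 95.9 and 86.1.

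**Figure D5:**
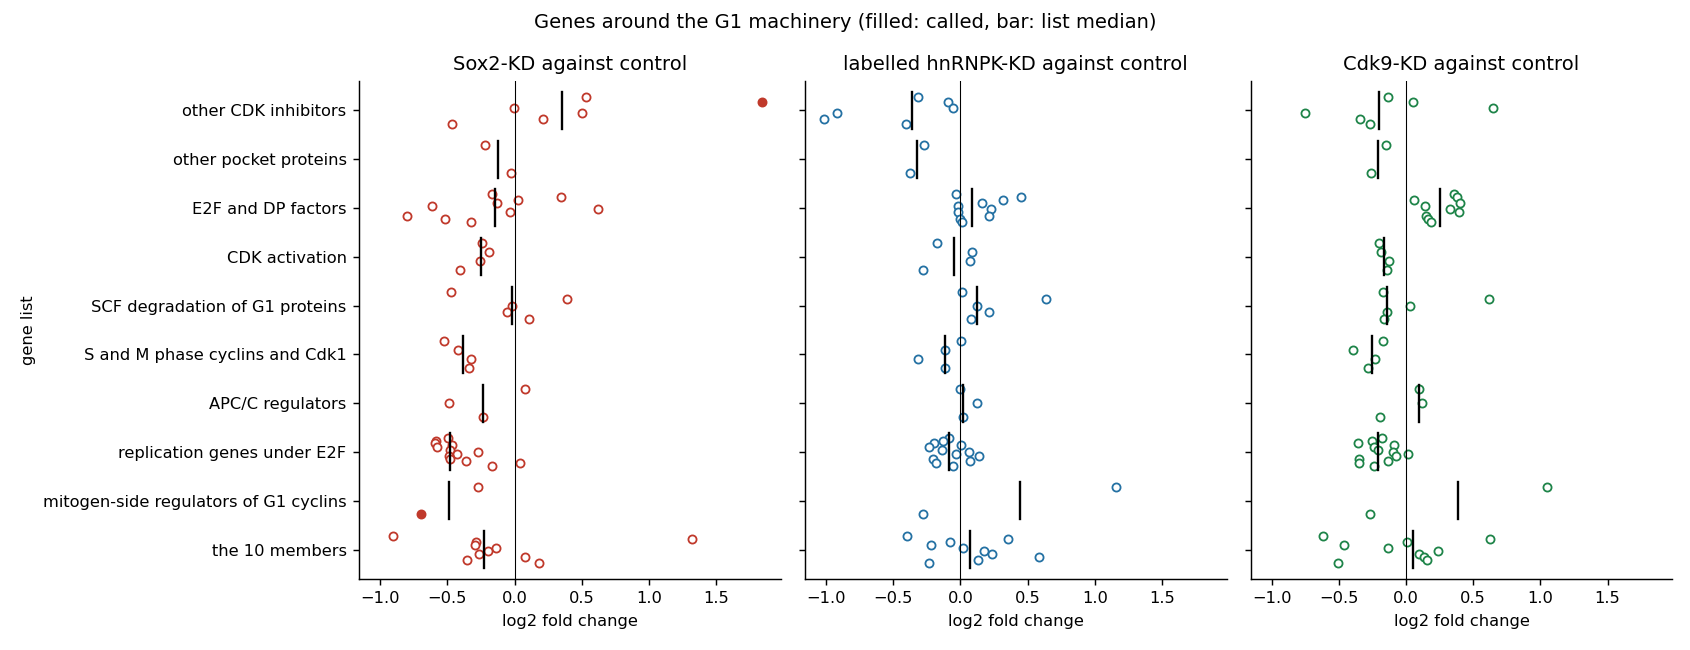
Log2 fold change of each pathway gene against control by gene list and knockdown, with the list's median. In Sox2-KD the 13 replication genes lay between −0.59 and 0.04, with a median of −0.48.

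The 4 genes of S and M phase (Ccna2, Ccnb1, Ccnb2 and Cdk1) were below both control libraries in Sox2-KD and in Cdk9-KD, and 3 of 4 in the group labelled hnRNPK-KD, beside 25.2%, 18% and 18.7% of all genes, with none called in any of the 3 and medians of −0.38, −0.26 and −0.11. Of these 4, all had an unadjusted p under 0.05 in Sox2-KD, beside 19.3% of all genes, and 1 did in each other group, beside 10.4% in Cdk9-KD and 8.03% in the group labelled hnRNPK-KD, and DESeq2 called none. The 10 E2F and DP factors ran from −0.80 for the repressor E2f8 to 0.62 for the repressor E2f6 in Sox2-KD, with a median of −0.15. Of them 0 were called by edgeR, beside 4.32% of all genes, and 2 by DESeq2 (E2f5 and E2f6). An unadjusted p under 0.05 was reached by 4, beside 19.3% of all genes. They ran from −0.03 (E2f1) to 0.45 (E2f2) in the group labelled hnRNPK-KD and from 0.06 (E2f3) to 0.40 (E2f4) in Cdk9-KD. E2f5 was at 38.7 and 33.7 CPM in control, 24.7 and 22.7 in Sox2-KD and 39.7 and 40.2 in Cdk9-KD, and was called lower in Sox2-KD than in Cdk9-KD (log2FC −0.75, SE 0.16, edgeR adjusted p = 0.0210). The call was lost when any of the 4 libraries was left out (edgeR adjusted p of 0.0581 to 0.170) and with only the 4 libraries compared (0.0508). Of the 5 genes of the SCF ubiquitin ligases, 1 was higher and 1 lower without overlap in Sox2-KD, beside 28.2% and 25.2% of all genes. In the group labelled hnRNPK-KD 3 were higher and 0 lower, beside 20.4% and 18.7%. In Cdk9-KD 2 were higher and 3 lower, beside 21.2% and 18%. None was called by edgeR or DESeq2 in any of the 3. Skp2, which marks Cdkn1b for degradation, was above both control libraries in all 3 groups, at 46.1 and 48.6 CPM in control, 70.3 and 53.9 in Sox2-KD, 77.2 and 70.1 in the group labelled hnRNPK-KD and 61.8 and 83.6 in Cdk9-KD. Its log2FC was 0.39, 0.64 and 0.62, with edgeR adjusted p of 0.288, 0.457 and 0.296, so it was called in none, and these differences share the control libraries. Skp1a, a core subunit of the ligases and the other end of the list, was at 385 and 367 CPM in control, 267 and 276 in Sox2-KD, 404 and 356 in the group labelled hnRNPK-KD and 307 and 363 in Cdk9-KD. Both Sox2-KD libraries were the lowest of all, by a log2FC of −0.47 against control (SE 0.14, edgeR adjusted p = 0.0946).

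The pocket proteins, CDK activators and APC/C regulators held no called gene in any comparison with control. The pocket proteins Rbl1 (p107) and Rbl2 (p130) were at −0.22 and −0.03 log2 units in Sox2-KD, −0.27 and −0.38 in the group labelled hnRNPK-KD and −0.15 and −0.26 in Cdk9-KD. Among the 4 genes that activate CDKs, differences ran from −0.40 for Mnat1 to −0.19 for Cdk7 in Sox2-KD, from −0.28 (Mnat1) to 0.09 (Cdk7) in the group labelled hnRNPK-KD, and from −0.20 (Cdc25a) to −0.12 (Ccnh) in Cdk9-KD. The 3 APC/C regulators ran from −0.49 for Fbxo5, the APC/C inhibitor, to 0.08 for Fzr1 in Sox2-KD, while Fbxo5 had the highest value of the list in the group labelled hnRNPK-KD (0.12) and in Cdk9-KD (0.12). At an unadjusted p under 0.05 stood 1 of the 4 CDK activators and 1 of the 3 APC/C regulators in Sox2-KD, beside 19.3% of all genes, and none in the other groups, and DESeq2 called none of them in any of the 3.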

How the data were processed

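RNA-seq was done on 8 libraries of E14 ESCs. Per the labels, the authors aligned reads with STAR (2.7.9a in the submitters' processing notes) to the mouse genome mm10 with GENCODE vM23 and deposited raw counts per gene from featureCounts 2.0.1, neither normalized nor pooled. The strand setting and the treatment of shared reads are not given in the sources used here. Symbols and coordinates came from GENCODE vM21 (GRCm38), which named 55154 of 55335 genes. Low genes were removed by filterByExpr, set to a count of 10 and a total of 15. All 8 libraries entered 1 fit in edgeR 4.0.16 (R 4.3.3; TMM, group term only, quasi-likelihood test, Benjamini-Hochberg over all genes tested), with the study's thresholds for a call (adjusted p under 0.05, log2FC past 0.6 in either direction). SE and 95% intervals came from the same fit. All 4 groups share 1 estimate of the spread.

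Alternatives were DESeq2 1.42.0, its size factors, library totals, no filter, a stricter filter of 10 counts in each library, a fit on just the 4 libraries of a comparison, the replicate number as a block, and each library left out. Where a group is left with 1 library, it is assumed to vary like the others. The test was checked on simulated counts. Near-identical copies were sought with BLAST 2.17.0 (at least 95% identity over 150 bases). Named genes are the members, the targeted genes, pathway genes called in a comparison and, in a comparison with control where a list held no call, its ends. The genes most like a called member would also have been named, but no member was called. Genes outside this rule (Mcm3, Mcm5, Mcm7, Cdc6, Cdkn2d, markers and antisense neighbours) were named after their values were seen. One gene of the replication list is not reported here and was left out of the list's counts and medians. Members, lists and tests were chosen with earlier results of these data known.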

Additional observations from a re-analysis of the deposited data

How the results depend on the processing

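The count of 0 members called held under every alternative in both comparisons that involve the group labelled hnRNPK-KD and in Cdk9-KD against control. It became 1 for Sox2-KD against control with DESeq2 and ranged from 0 to 1 when each library was left out, the gene being Ccnd1, and from 0 to 1 for Sox2-KD against Cdk9-KD, the gene being Cdk2. With the replicate number as a replicate block, 1 member was called in Sox2-KD (Ccnd1, log2FC −0.85, edgeR adjusted p = 0.0415), 15 genes in place of 23 in Cdk9-KD, Ccne2 was at 0.023 in Sox2-KD against Cdk9-KD, and Cdkn1c in Sox2-KD (leaving 1 pathway gene called there) and Cdkn2b against Cdk9-KD lost their calls. The numbers are only shared labels: deviations of same-numbered libraries from their group means correlated between −0.23 and 0.23 over the 6 pairs of groups. The cause of these changes was not tested.

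Counts of all genes called by edgeR, by DESeq2 and with each library left out were 713, 1039 and 144 to 343 in Sox2-KD, 0, 91 and 0 to 1 in the group labelled hnRNPK-KD (1 without the filter), and 23, 229 and 0 to 32 in Cdk9-KD. They were 974, 1286 and 90 to 875 for Sox2-KD against the group labelled hnRNPK-KD, and 1210, 1441 and 337 to 863 against Cdk9-KD. Of the other pathway genes, 2 were called in Sox2-KD (6 with DESeq2, 0 to 1 with a library left out), 4 against the group labelled hnRNPK-KD (6 with DESeq2, 0 to 3 with a library left out; 3 with library totals, without the filter or with only the 4 libraries compared) and 3 against Cdk9-KD (7 with DESeq2, 0 to 2 with a library left out). These pathway counts are of 49 genes, and 4.32%, 5.9% and 7.33% of all genes tested were called in the same comparisons, in that order. Replication genes below control in the group labelled hnRNPK-KD numbered 5, 9 with library totals and 5 to 9 with a library left out. Library totals shifted the median of all genes by 0.11 log2 units for Sox2-KD against the group labelled hnRNPK-KD and by less elsewhere.

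Members near 0 changed sign without a call. Ccne2 in the group labelled hnRNPK-KD was at −0.019 with library totals, −0.0011 with at least 10 counts in every library and −0.00085 with only the 4 libraries compared. Ccnd3 in Cdk9-KD was at −0.010 with DESeq2, −0.011 with its size factors, −0.00026 with library totals, −0.0079 without the filter and −0.013 with at least 10 counts. Against Cdk9-KD, Ccne2 in Sox2-KD was at 0.0072 with DESeq2's size factors, 0.078 with library totals, 0.024 with at least 10 counts and 0.021 with only the 4 libraries compared, and Cdk6 at 0.020 with library totals. Ccne1 against the group labelled hnRNPK-KD was at 0.030 with library totals.

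Leaving out each library in turn gave the following ranges of log2FC for members that changed sign. In Sox2-KD they were −0.18 to 0.35 for Cdk6, −0.57 to 2.10 for Ccnd2 and −0.42 to 0.083 for Ccne2. In the group labelled hnRNPK-KD they were −0.15 to 0.14 for Ccne2, −0.84 to 0.19 for Ccnd1, −0.089 to 0.35 for Cdkn1b, −0.55 to 0.88 for Ccnd2, −0.26 to 0.056 for Ccnd3, −0.019 to 0.32 for Cdk2, −0.025 to 0.43 for Cdk4 and −0.83 to 0.16 for Rb1. In Cdk9-KD they were −0.076 to 0.054 for Ccnd3, −0.19 to 0.39 for Cdk6, −0.078 to 0.36 for Cdkn1b, −0.90 to 0.33 for Ccne2, −0.14 to 0.51 for Cdk2 and −0.059 to 0.21 for Cdk4. Against the group labelled hnRNPK-KD they were −0.93 to 1.85 for Ccnd2 and −0.44 to 0.063 for Ccne2. Against Cdk9-KD they were −1.19 to 1.47 for Ccnd2, −0.49 to 0.75 for Ccne2 and −0.31 to 0.25 for Cdk6. Counts were lowest for Ccnd2, at 4 to 27 a library.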
